A study of Mus musculus with 6 samples.

Results

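Glycolysis and hypoxia response genes were examined as a set of 35 genes, chosen by symbol from textbook membership of these pathways, among 24391 gene rows. The set held 15 glycolytic enzyme genes and 20 others, which were 4 glucose and lactate transporters, 3 regulators of glycolytic or pyruvate flux, 3 genes of oxygen sensing and 10 other targets of hypoxia-inducible factor (HIF). The study profiled tumour-associated macrophages (TAMs), which are macrophages taken from a tumour, of mice with and without the chemokine CCL5. Cells came from colorectal tumours of BALB/C mice and RNA was sequenced in 6 libraries. All 35 genes had a row in the count table and 34 passed the filter on low counts. The exception was the enolase gene Eno1.

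The CD11bhiF4/80low gate (F4/80low), named for high CD11b and low F4/80 on the cell surface, had 2 libraries from wild-type mice (WT) and 2 from CCL5-/- mice. For the CD11blowF4/80hi gate (F4/80hi) there was a single library under each genotype label. Age, sex, tumour model and any treatment are not given in the sources used here, and neither is the number of mice behind a library. The p-values therefore reflect only how these libraries vary, and that variation may be technical. In bulk RNA, fewer cells of a type and less RNA per cell cannot be told apart.

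Glycolysis turns glucose into pyruvate in the cytosol, and lactate dehydrogenase turns pyruvate into lactate, which leaves the cell through monocarboxylate transporters. When oxygen is short, the prolyl hydroxylases that mark HIF-1α for destruction slow down, HIF-1α pairs with ARNT, and the pair binds hypoxia response elements near many glycolytic genes and near genes of angiogenesis, mitophagy and collagen modification. Macrophages in poorly perfused tumour regions are known for this response, and inflammatory activation of macrophages also raises HIF-1α and glycolysis.

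Promoter sequences are shown because the core of the hypoxia response element, ACGTG or GCGTG, can be read in them. RefSeq promoter windows (GRCm38.p6) matched 32 of the 35 genes by symbol with 43 start sites, and Slc2a3, Bnip3l and Ndrg1 were not matched. In the 250 bases before the start, searched on both strands with overlapping matches counted as 1, at least 1 core word was found in 81.4% of the 43 windows and in 38.6% of all 32851 windows of that length. By gene, 12 of 15 enzyme genes and 17 of 17 other matched genes held one, against 41.5% of all 27025 genes. The core word holds a CG pair, and the windows of these genes had a median of 14 CG pairs against 6 in all windows, with no matching on composition. A match describes letters and not a binding site, and CACGTG, which reads ACGTG on both strands, is also the E-box of other factors. The 5 windows with most matches and no annotated exon, each with 3 matches, are printed 5′ to 3′ with the matches in capitals (CACGT and CACGC are the words read on the other strand). They belong to Ldha, which encodes lactate dehydrogenase A (chr7:46845554-46845803), Pgam1, which encodes phosphoglycerate mutase (chr19:41911621-41911870), Slc16a1, which encodes the lactate transporter MCT1 (chr3:104638414-104638663), and P4ha1 (chr10:59323046-59323295) and P4ha2 (chr11:54100674-54100923), which encode catalytic subunits of collagen prolyl hydroxylase, all on the plus strand.
Ldha: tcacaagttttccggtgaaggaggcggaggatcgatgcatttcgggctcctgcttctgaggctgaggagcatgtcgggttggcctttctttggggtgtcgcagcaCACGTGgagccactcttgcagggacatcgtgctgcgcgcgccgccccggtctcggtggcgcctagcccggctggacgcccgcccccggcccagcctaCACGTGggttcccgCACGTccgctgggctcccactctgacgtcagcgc
Pgam1: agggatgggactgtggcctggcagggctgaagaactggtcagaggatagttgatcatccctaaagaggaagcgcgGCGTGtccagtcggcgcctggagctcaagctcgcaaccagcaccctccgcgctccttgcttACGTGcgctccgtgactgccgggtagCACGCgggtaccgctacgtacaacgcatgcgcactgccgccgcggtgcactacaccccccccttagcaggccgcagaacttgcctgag
Slc16a1: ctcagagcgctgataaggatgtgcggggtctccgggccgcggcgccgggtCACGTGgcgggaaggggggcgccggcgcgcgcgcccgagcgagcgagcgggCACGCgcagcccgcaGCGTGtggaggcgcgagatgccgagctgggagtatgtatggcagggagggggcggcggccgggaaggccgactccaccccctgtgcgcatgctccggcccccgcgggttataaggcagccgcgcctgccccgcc
P4ha1: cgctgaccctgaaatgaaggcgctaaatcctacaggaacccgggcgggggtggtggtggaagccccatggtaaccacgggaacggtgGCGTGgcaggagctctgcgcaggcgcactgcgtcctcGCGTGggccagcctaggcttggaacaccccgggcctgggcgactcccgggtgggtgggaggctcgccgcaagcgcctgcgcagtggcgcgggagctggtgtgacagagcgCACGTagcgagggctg
P4ha2: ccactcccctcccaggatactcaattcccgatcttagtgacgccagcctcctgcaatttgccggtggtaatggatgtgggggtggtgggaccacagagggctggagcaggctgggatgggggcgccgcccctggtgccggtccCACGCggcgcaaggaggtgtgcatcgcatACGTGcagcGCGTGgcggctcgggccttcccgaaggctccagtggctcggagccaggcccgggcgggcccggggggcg
The Ldha window holds CACGTG at both of its first matches, and the first match of Slc16a1 is CACGTG as well.

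The libraries have limits that touch every result. Total counts per F4/80low library ranged from 9280635 to 22411342, and Rn45s, the ribosomal RNA precursor, took 58.4% and 50.035% of the replicate 1 libraries against 0.844% and 1.38% of the replicate 2 libraries. For the F4/80hi libraries the titles name the opposite genotype to the genotype fields, and Ccl5 goes against the fields, with 145 FPKM (fragments per kilobase of transcript, scaled to depth) under the CCL5-/- label and 15.7 FPKM under the WT label. The FPKM ratio of that pair predicted the split of reads between WT and CCL5-/- replicate 1 with a median chi-square of 0.335 over 6677 genes, under the 0.455 of independent reads, while the other pairs of libraries gave at least 3.57. The F4/80hi libraries thus differed from the replicate 1 libraries by less than the sampling noise and were counted as the same 2 libraries, so the replicate 1 gate is uncertain. Ccl5 reads in F4/80low were 255 and 3976 in WT and 35 and 82 in CCL5-/- replicates 1 and 2. Of 15 macrophage markers all were detected, with a summed level of 5466 to 9797 CPM (read counts scaled to library size). Itgam, the gene of CD11b, was at 598 and 180 CPM in WT and at 580 and 144 CPM in CCL5-/- replicates 1 and 2. Adgre1, the gene of F4/80, was at 35.5 and 51.7 CPM in WT and at 53.7 and 35.3 CPM in CCL5-/-. Csf1r was at 192 and 151 CPM in WT and at 209 and 126 CPM in CCL5-/-. Neutrophil markers summed to 3783 CPM in WT replicate 1, 599.9 in WT replicate 2, 776 in CCL5-/- replicate 1 and 347 in CCL5-/- replicate 2. Fibroblast markers summed to between 1637 and 3606 CPM and epithelial markers to between 106 and 184 CPM. The largest parts were Fn1 (722 to 2691 CPM) and Krt20 (74.0 to 149 CPM), so neither sum stands for its whole list. Hepatocyte markers summed to 111 CPM in CCL5-/- replicate 1 and to between 0.33 and 1.72 CPM in the other libraries. T and NK cell markers summed to 389 CPM in WT replicate 2 and to between 99.2 and 168 CPM in the others.

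The first comparison set CCL5-/- against WT within the F4/80low gate. None of the genes passed. In edgeR's quasi-likelihood test over 12710 genes, 0 of 34 had an adjusted p under 0.05, where 0% of all genes were called, and 0 of 34 had an unadjusted p under 0.05, against 41 of all genes. DESeq2 called 0 of the 34 as well, and so did edgeR with the replicate number as a block, where 0.0787% of all genes were called. Levels are given in CPM scaled by edgeR's TMM factors, and a log2 difference is CCL5-/- minus WT. Because the libraries split by replicate number, the difference is also given within the replicate 1 pair and the replicate 2 pair, in that order.

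By direction alone, the enzyme genes leaned towards higher levels in CCL5-/- cells. Within both pairs 11 of the 14 tested enzyme genes were higher in CCL5-/-, against 24.6% of all genes tested, and Pfkp and Eno2 were lower in both, against 26.3%. The median log2 difference of the 14 was 0.23, with 0.11 and 0.31 in the pairs, where the median of all genes was -0.01. Leaving out 1 library moved the enzyme median to between 0.06 (without CCL5-/- replicate 2) and 0.48 (without CCL5-/- replicate 1). Here and below, such genotype fits had no replicate term, so the genotypes then also differed in replicate number. All 15 enzymes together took 0.890% and 1.10% of counts outside Rn45s in WT and 1.05% and 1.47% in CCL5-/- replicates 1 and 2, so these ranges overlapped. The other 20 genes had a median of 0.09, with 0.04 and 0.19 in the pairs, 8 higher and 6 lower in both. That median was -0.05 without CCL5-/- replicate 2 and 0.22 without WT replicate 1. Among them, the 10 other HIF targets leaned as the enzymes did, with a median of 0.25, and 0.19 and 0.31 in the pairs. The transporters (-0.28), flux regulators (-0.44) and oxygen sensing genes (-0.13) had negative medians.

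**Figure D1:**
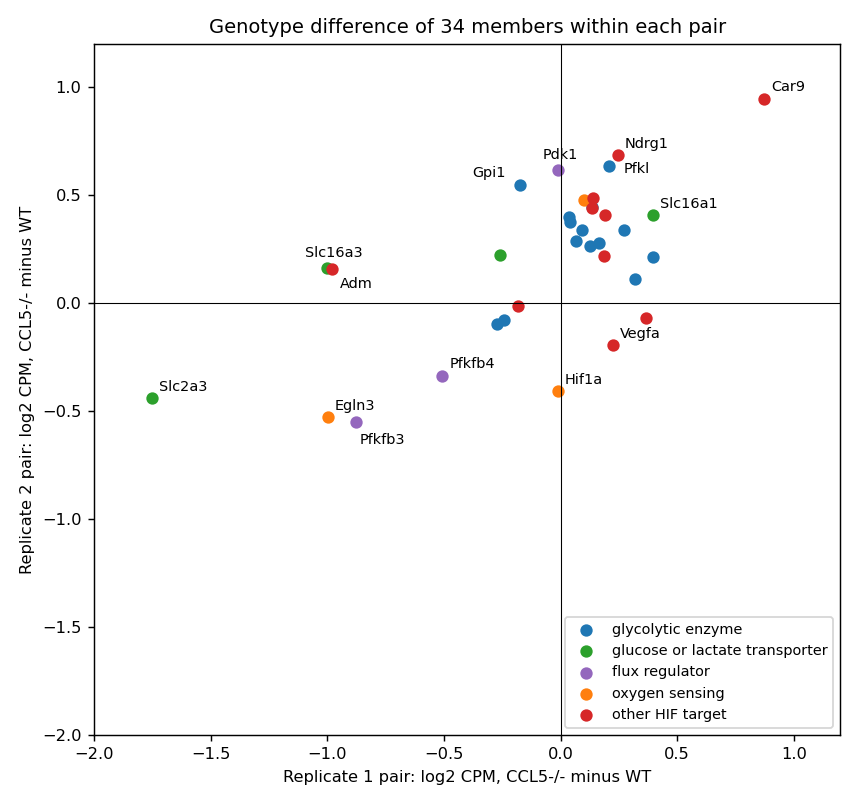
Each point is 1 of 34 genes, with the log2 CPM difference (CCL5-/- minus WT) in the replicate 1 pair on the x axis and in the replicate 2 pair on the y axis, coloured by role. A total of 19 genes lie in the upper right, where Car9 is farthest out, and 8 in the lower left, where Slc2a3, Egln3, Pfkfb3 and Pfkfb4 lie.

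Among the enzymes, Pfkl, which encodes the liver-type subunit of phosphofructokinase, had the smallest p. Its level was 76.7 and 85.7 CPM in WT and 88.7 and 133 CPM in CCL5-/- replicates 1 and 2, so the groups did not overlap. The log2 difference was 0.45 (SE 0.40, edgeR adjusted p = 1.0), and it was 0.13 without CCL5-/- replicate 2 and 0.76 without CCL5-/- replicate 1. Pgam1, which encodes phosphoglycerate mutase, was at 122 and 93.3 CPM in WT and at 134 and 127 CPM in CCL5-/- (log2 difference 0.28, SE 0.38, and 0.098 to 0.497 with 1 library left out). Pgk1, which encodes the phosphoglycerate kinase of the first ATP-yielding step, was at 431 and 597 CPM in WT and at 568 and 693 CPM in CCL5-/-, with overlap between the groups. Hk2, the inducible hexokinase gene, was at 98.3 and 86.2 CPM in WT and at 123 and 93.3 CPM in CCL5-/-, also overlapping. Ldha had pair differences of 0.27 and 0.34, and Pkm, which encodes pyruvate kinase, had 0.03 and 0.40. Counting genes whose groups did not overlap, 8 of 34 were higher in CCL5-/- in both libraries, against 8.36% of all genes. They were Pfkl, Aldoc, Pgam1, Slc16a1, Egln1, Car9, Bnip3 and P4ha1. None of the 34 was lower without overlap, against 8.24% of all genes.

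Eno1, which encodes the main enolase, could not be followed in the count table. It had 1 read in WT replicate 1 and 0 in each other F4/80low library, while in the FPKM table it was the fourth most abundant of the 35 genes. Eno1b, a near-identical retrogene copy, had 1099 and 9126 reads in WT and 1765 and 10838 reads in CCL5-/-. The sources used here do not say how reads that match both copies were assigned, so enolase counts are uncertain, and the same holds for other enzyme genes with processed copies. Eno1b stood at 189 and 299.7 CPM in WT and at 205 and 398 CPM in CCL5-/-, and with Eno1b in the place of Eno1 the enzyme median was 0.24.

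The transporters did not move together. Slc16a1, which encodes the lactate and pyruvate transporter MCT1, was at 70.5 and 70.2 CPM in WT and at 92.8 and 93.1 CPM in CCL5-/-. The 2 libraries of each genotype were close to each other and apart from the other genotype (70.4 ± 0.228 against 93.0 ± 0.235 CPM, mean ± SD, n = 2), with pair differences of 0.40 and 0.41. The edgeR test, which shares its spread across genes, still gave a standard error of 0.35 around 0.40. Slc16a3, which encodes the hypoxia-inducible lactate exporter MCT4, was at 290 and 129 CPM in WT and at 145 and 144 CPM in CCL5-/-, so that WT replicate 1 stood above the other 3 libraries. Slc2a1, the gene of the basal glucose transporter GLUT1, was at 166 and 143 CPM in WT and at 139 and 167 CPM in CCL5-/-, with overlap and opposite signs in the pairs. Slc2a3, the gene of the high-affinity glucose transporter GLUT3, was at 39.1 and 8.60 CPM in WT and at 11.6 and 6.35 CPM in CCL5-/-. Again WT replicate 1 was highest. The gene body lies on chromosome 6 at 122727809 to 122801640 (GENCODE, GRCm38). Its log2 difference was the most negative of the 34 genes at -1.40 (SE 0.78), with -1.75 and -0.44 in the pairs. It was 0.06 without WT replicate 1, which set WT replicate 2 alone against both CCL5-/- libraries.

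A small group of regulators shared the pattern of Slc2a3. Pfkfb3, which makes the allosteric activator of phosphofructokinase, was at 41.4 and 11.1 CPM in WT and at 22.5 and 7.60 CPM in CCL5-/-. Egln3, the hypoxia-inducible prolyl hydroxylase gene, was at 26.4 and 6.50 CPM in WT and at 13.2 and 4.51 CPM in CCL5-/-. Pfkfb4, a second gene of that bifunctional enzyme family, was at 17.3 and 10.05 CPM in WT and at 12.2 and 7.96 CPM in CCL5-/-. In each of the 3 genes WT replicate 1 was highest and CCL5-/- replicate 2 lowest, the genotypes overlapped, and both pairs were lower in CCL5-/-. The pair differences were -0.88 and -0.55 for Pfkfb3, -0.997 and -0.53 for Egln3 and -0.51 and -0.34 for Pfkfb4. Hif1a and the enzyme gene Pfkp (-0.27 and -0.10) had the same highest and lowest libraries and were also lower in both pairs. The neutrophil marker sum had the same highest and lowest libraries, and 10 of its 11 tested genes were lower in CCL5-/- in both pairs. No gene of that list in the count table was at 0 in all libraries. Its part in these differences was not tested.

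The other oxygen sensing and flux genes did not share a direction. Hif1a, which encodes the oxygen-regulated HIF subunit, was at 245 and 119 CPM in WT and at 242 and 89.9 CPM in CCL5-/-, with pair differences of -0.01 and -0.41. Egln1, which encodes the main prolyl hydroxylase that acts on HIF-1α, was at 45.3 and 47.0 CPM in WT and at 48.5 and 65.4 CPM in CCL5-/-. Its pair differences were 0.10 and 0.48. Pdk1, the kinase gene that restrains pyruvate dehydrogenase, was at 19.6 and 15.3 CPM in WT and at 19.4 and 23.4 CPM in CCL5-/-. The pairs gave -0.01 and 0.62 for Pdk1. Of these, Egln1 had no overlap between the groups and Hif1a and Pdk1 did.

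Of the other HIF targets, Car9 had the largest positive difference of the 34 genes. This gene of the cell-surface carbonic anhydrase IX (chromosome 4, 43506966 to 43513729, GRCm38) was low, with 17 and 160 reads in WT and 46 and 276 in CCL5-/-, or 2.92 and 5.25 CPM against 5.34 and 10.1 CPM. The lowest CCL5-/- library stood just above the highest WT library, and the pairs gave 0.87 and 0.95. The log2 difference was 0.90 (SE 0.55, edgeR adjusted p = 1.0), and it was 0.36 without CCL5-/- replicate 2 and 1.41 without WT replicate 2. Ndrg1, a stress-responsive HIF target, was at 325 and 518 CPM in WT and at 385 and 833 CPM in CCL5-/-, with overlap between the groups. Bnip3, a mitophagy receptor gene, was at 63.8 and 68.7 CPM in WT and at 70.1 and 93.4 CPM in CCL5-/-. P4ha1, the gene of a collagen prolyl hydroxylase subunit, was at 63.3 and 66.8 CPM in WT and at 72.2 and 88.7 CPM in CCL5-/-. Bnip3 and P4ha1 were thus higher in each CCL5-/- library than in either WT library, by less than the spread the test used. Bnip3l, a paralog of Bnip3, was at 58.4 and 68.5 CPM in WT and at 51.4 and 67.8 CPM in CCL5-/-, with no such separation.

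The remaining targets showed no common direction. Vegfa, the angiogenic growth factor gene, had pair differences of 0.23 and -0.19, and Ddit4, an inhibitor of mTORC1 signalling, had 0.37 and -0.07. P4ha2 had 0.14 and 0.49, and Ankrd37 had 0.18 and 0.22. Adm, which encodes the peptide adrenomedullin, had 3 to 21 reads per library, too few to read a direction. In the authors' deposited table, made on a scale that is not given, the log2 fold changes of the 35 genes ran from -0.47 (Slc2a3) to 0.35 (Car9), and each had an adjusted p of 1.0.

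**Figure D2:**
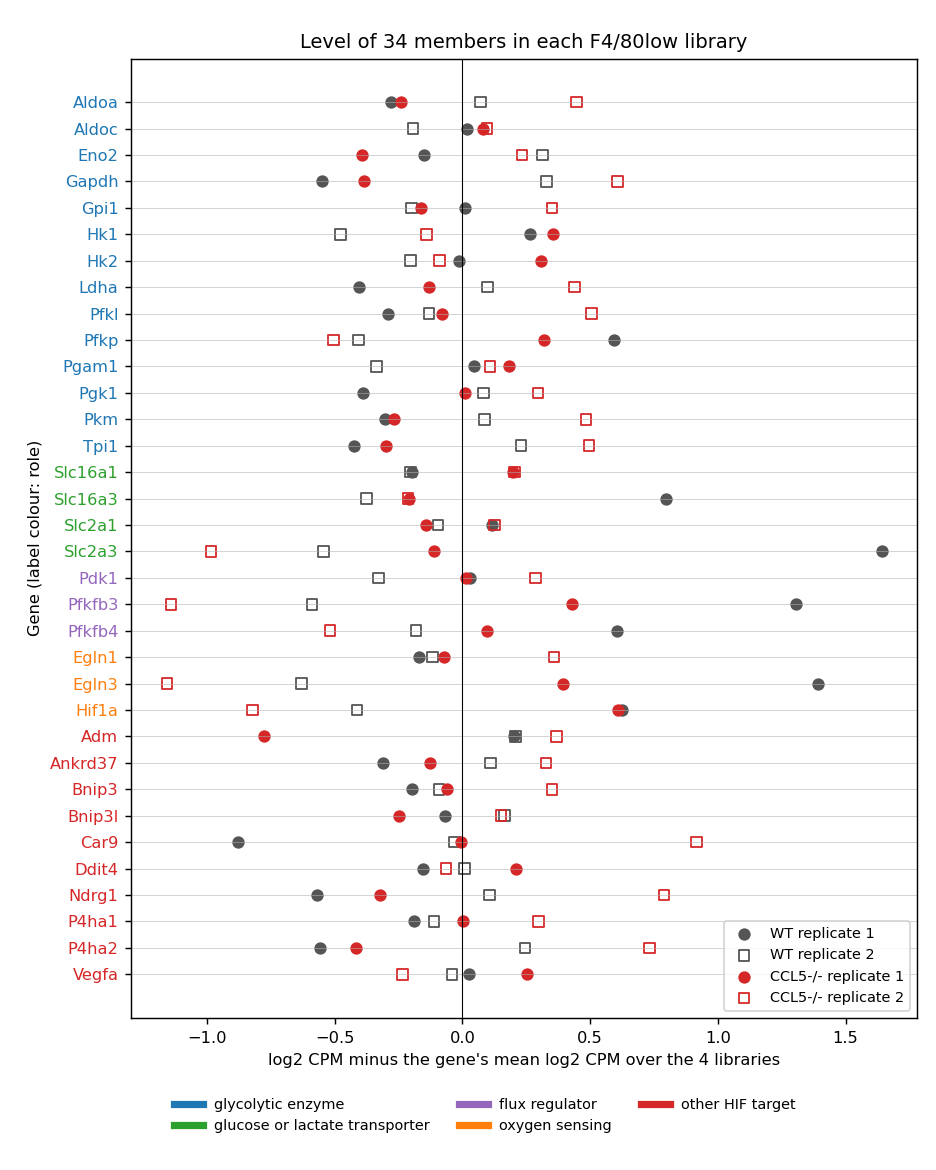
Each row is 1 of 34 genes, and the x axis gives log2 CPM minus that gene's mean over the 4 F4/80low libraries, with grey for WT, red for CCL5-/-, filled circles for replicate 1 and open squares for replicate 2. WT replicate 1 stands to the right for Slc2a3, Slc16a3, Pfkfb3 and Egln3, and CCL5-/- replicate 2 stands to the right for most enzymes, Car9, Ndrg1 and P4ha2.

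The second comparison set replicate 2 against replicate 1 within F4/80low, with a term for genotype, since this split was wider than that by genotype. The labels do not say what the number stands for. In edgeR 10 of 34 genes passed an adjusted p of 0.05, a share near the 31.8% of all genes called. Higher in replicate 2 were 4 genes, where 13.9% of all genes were called, and lower were 6, where 18.0% were. By role the counts were small and a difference between roles was not tested. Among the 14 enzymes 2 rose and 2 fell, with a median log2 change of 0.38, while 1 of 4 transporters, 1 of 3 flux regulators and 2 of 3 sensing genes fell and 0 rose. Among the 10 other HIF targets 2 rose and 0 fell. The median of all genes was 0.00.

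Of the enzymes, Gapdh and Tpi1 were higher in replicate 2. Gapdh, which encodes glyceraldehyde-3-phosphate dehydrogenase, stood at 987 CPM (WT) and 1107 CPM (CCL5-/-) in replicate 1, and in replicate 2 it reached 1815 and 2202 CPM. The log2 change was 0.94 (SE 0.27, edgeR adjusted p = 0.016). Tpi1, the triosephosphate isomerase gene, went from 523 and 570.2 CPM to 824 and 991 CPM (0.73, SE 0.25, adjusted p = 0.041). Pfkp, the platelet-type phosphofructokinase gene, went the other way, from 94.7 and 78.4 CPM to 47.4 and 44.3 CPM (-0.91, SE 0.22, adjusted p = 0.0054). Hk1, the housekeeping hexokinase gene, went from 56.8 and 60.5 CPM to 33.99 and 42.9 CPM (-0.62, adjusted p = 0.040). In each of these 4 genes the replicate numbers did not overlap. They were picked by the test on that split, so this adds nothing to it, and the share over all genes was not taken. Pkm, Ldha, Aldoa and Eno2 had log2 changes from 0.52 to 0.57 and did not pass. Under alternatives, Eno2 passed with Rn45s left out (adjusted p = 0.0499) and with no filter (0.027), and Aldoa (0.71, 0.039), Pkm (0.77, 0.038) and Pfkl (0.69, 0.037) passed without WT replicate 2. These calls are fragile, since with 1 library left out and no genotype term Gapdh had 1.07 (adjusted p = 0.057, without CCL5-/- replicate 1) and 0.89 (0.11, without WT replicate 1). Tpi1 had 0.84 (0.12), 0.59 (0.083) and 0.70 (0.20) without CCL5-/- replicate 1, CCL5-/- replicate 2 and WT replicate 1. Pfkp had -0.75 (0.095) without WT replicate 1, and Hk1 lost its call without CCL5-/- replicate 1, WT replicate 1 or WT replicate 2 (0.26, 0.18 and 0.16) and in DESeq2 (0.11).

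The genes lower in replicate 2 included Hif1a and the low-abundance regulators. Egln3 fell from 26.4 CPM in WT and 13.2 CPM in CCL5-/- to 6.50 and 4.51 CPM, a log2 change of -1.79 (SE 0.27, edgeR adjusted p = 0.00018). Pfkfb3 had -1.73 (SE 0.23, adjusted p = 7.9e-05), with 22.5 CPM in its lower replicate 1 library and 11.1 CPM in its higher replicate 2 library. Hif1a fell from 245 and 242 CPM to 119 and 89.9 CPM (-1.23, SE 0.23, adjusted p = 0.0011). Slc16a3 passed without CCL5-/- replicate 1 (-1.04, adjusted p = 0.031), and Pfkfb4 with DESeq2's size factors in edgeR (-0.70, 0.040). Pfkfb3, Egln3 and Hif1a kept their call under each alternative run, left-out libraries included. Slc2a3 had -1.56 (SE 0.31, adjusted p = 0.0030), but -0.61 (0.28) without WT replicate 1, -1.53 (0.498) without CCL5-/- replicate 2, -1.97 (0.36) without WT replicate 2 and -1.74 (0.088) with all libraries and no genotype term. Neutrophil markers moved the same way, with 8 of 11 tested lower in replicate 2 and 0 higher, and sums of 776 to 3783 CPM in replicate 1 and 347 to 599.9 CPM in replicate 2. Macrophage markers were mixed, with 3 of 15 called higher in replicate 2 and 4 called lower. The part of either marker set in these changes was not tested.

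The HIF targets higher in replicate 2 were Ndrg1 and P4ha2. Ndrg1 had a log2 change of 0.89 (SE 0.26, edgeR adjusted p = 0.015), from 325 and 385 CPM to 518 and 833 CPM. P4ha2 had 0.99 (SE 0.27, adjusted p = 0.012), from 7.38 and 8.13 CPM to 12.9 and 18.1 CPM. Car9 had a similar change of 0.89 but a wider error (SE 0.34, adjusted p = 0.059). Car9 passed with Rn45s left out (adjusted p = 0.048), with no filter on low counts (0.033) and without WT replicate 2 (1.26, 0.043), and its change was 0.32 without CCL5-/- replicate 2 and 1.44 without CCL5-/- replicate 1. Ndrg1 lost its call without CCL5-/- replicate 1 (1.10, adjusted p = 0.062), CCL5-/- replicate 2 (0.55, 0.11) or WT replicate 1 (0.84, 0.14), and P4ha2 without the same libraries (1.11, 0.73 and 0.95, with 0.061, 0.14 and 0.085) and in DESeq2 (0.98, 0.065). In the same libraries Hif1a, the gene of their regulator, was lower in replicate 2, so its transcript moved opposite to those of Ndrg1 and P4ha2. This did not hold for the hypoxia-inducible Egln3, which fell (-1.79) as Hif1a did (-1.23). Slc2a1, Slc16a1, Pdk1 and Ddit4 had changes between -0.06 and 0.03.

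**Figure D3:**
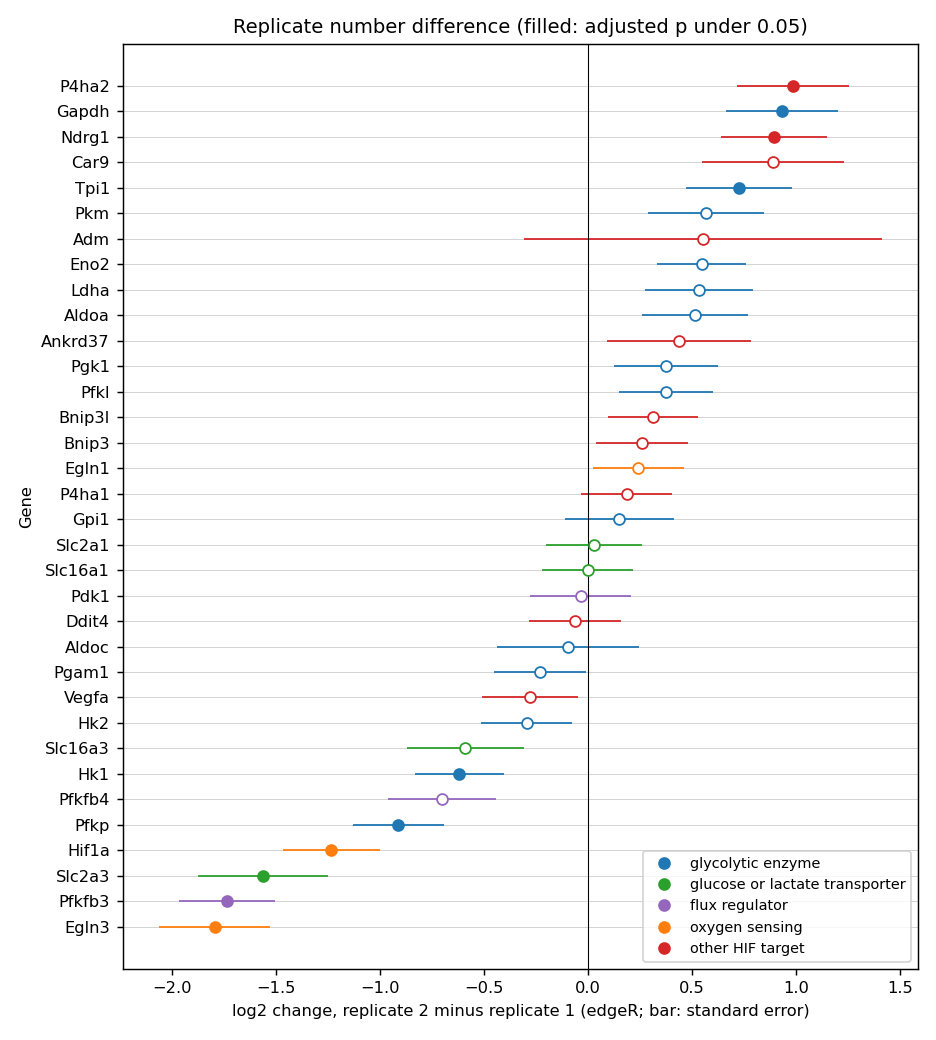
Points give the log2 change of 34 genes between replicate 2 and replicate 1 of F4/80low with the standard error as a bar, filled where the edgeR adjusted p was under 0.05 and coloured by role. The 4 filled points on the right are P4ha2, Gapdh, Ndrg1 and Tpi1, and the 6 on the left reach -1.79 for Egln3.

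Other genes of these pathways, from lists chosen with earlier results known, gave the same count of 0 calls by genotype in each list, with median log2 differences between -0.01 and 0.16. The smallest unadjusted p-values by genotype over the lists belonged to the chemokine receptor gene Cxcr4 (log2 difference -0.72, SE 0.42), the pyruvate dehydrogenase kinase gene Pdk2 (-1.45, SE 0.92) and the lipid droplet gene Plin2 (-0.61, SE 0.41), and none of the 3 passed. Pdk2 had only 7 and 27 reads in WT and 5 and 6 in CCL5-/-. By replicate number, of 15 tested glycolytic isoform genes 0 rose and 1 fell, which was Pfkfb2 (-1.47, edgeR adjusted p = 0.013). Among 18 pyruvate and pentose phosphate genes 3 rose and 0 fell, with Pdhb, a pyruvate dehydrogenase subunit gene, at 1.01 and Tkt, the transketolase gene, at 0.63. Of 13 tested HIF machinery genes 4 rose and 3 fell. The elongin genes Tceb1 (1.62) and Tceb2 (1.11) and the prolyl hydroxylase gene Egln2 (0.95), whose products act in HIF degradation, rose. Arnt, the HIF partner gene (-0.87), and the coactivator genes Ep300 (-1.69) and Crebbp (-1.52) fell. The other 6 genes of that list were not called, Vhl (-0.09) and Hif1an (0.05) among them. Of 36 other hypoxia targets 9 rose and 6 fell, with the metallothionein gene Mt2 at 1.27, the cytokine gene Mif at 1.04, the JmjC oxygenase gene Jmjd6 at 1.17 and the metallothionein gene Mt1 at 1.09. These counts stand beside the 13.9% of all genes that rose and the 18.0% that fell.

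The FPKM values of the F4/80hi pair allow levels to be compared between genes, since FPKM is scaled to transcript length. Values are given first under the WT label and then under the CCL5-/- label. Gapdh was highest at 2018 and 1787 FPKM. It was followed by Ldha (901 and 733), Pkm (855 and 795, listed as Pkm2), Eno1 (721 and 605) and Pgk1 (613 and 451). At the first step, Hk2 (27.5 and 20.9 FPKM) and Hk1 (14.5 and 13.3 FPKM) were far lower, as were Pfkl (27.9 and 22.7) and Pfkp (24.7 and 27.9) at phosphofructokinase. Of paired isoforms, Aldoa (411 and 406) stood far above Aldoc (3.87 and 3.13), and Eno1 far above Eno2 (14.9 and 17.9). The Eno1 level here also depends on how reads matching its retrogene copy were assigned, which is not given. Hif1a was at 77.8 and 74.0 FPKM, and Car9 (3.48 and 1.41) and Adm (0.216 and 0.814) were lowest. The bounds the authors deposited with each value overlapped between the libraries for each of the 35 genes. They also overlapped between neighbours in the order, as between Gapdh (93.4 to 3942 in the library labelled WT) and Ldha (167 to 1635), so the order of neighbours is not resolved.

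Between these libraries, which have no replicate check, Slc2a3 was the 1 gene of 34 kept that lay at least 2-fold apart, with 14.7 FPKM under the CCL5-/- label and 4.60 FPKM under the WT label. That is a difference of 1.49 on the log2(FPKM + 1) scale, which understates changes of low genes, and the 2-fold mark was passed upwards by 2.35% of all genes and downwards by 1.58%. Egln3 followed with 12.6 and 6.31 FPKM, then Pfkfb3 with 11.7 and 6.16 FPKM and Slc16a3 with 129 and 72.0 FPKM. In the other direction stood Car9 (1.41 and 3.48 FPKM) and Ddit4 (17.3 and 26.3 FPKM). Of the 15 enzymes 12 were lower in the library labelled CCL5-/-, with a median of -0.17 against -0.02 for all genes. Since these were counted as the replicate 1 libraries of F4/80low under the opposite labels, these differences repeat the replicate 1 pair with the sign turned. They add no support to it.

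**Figure D4:**
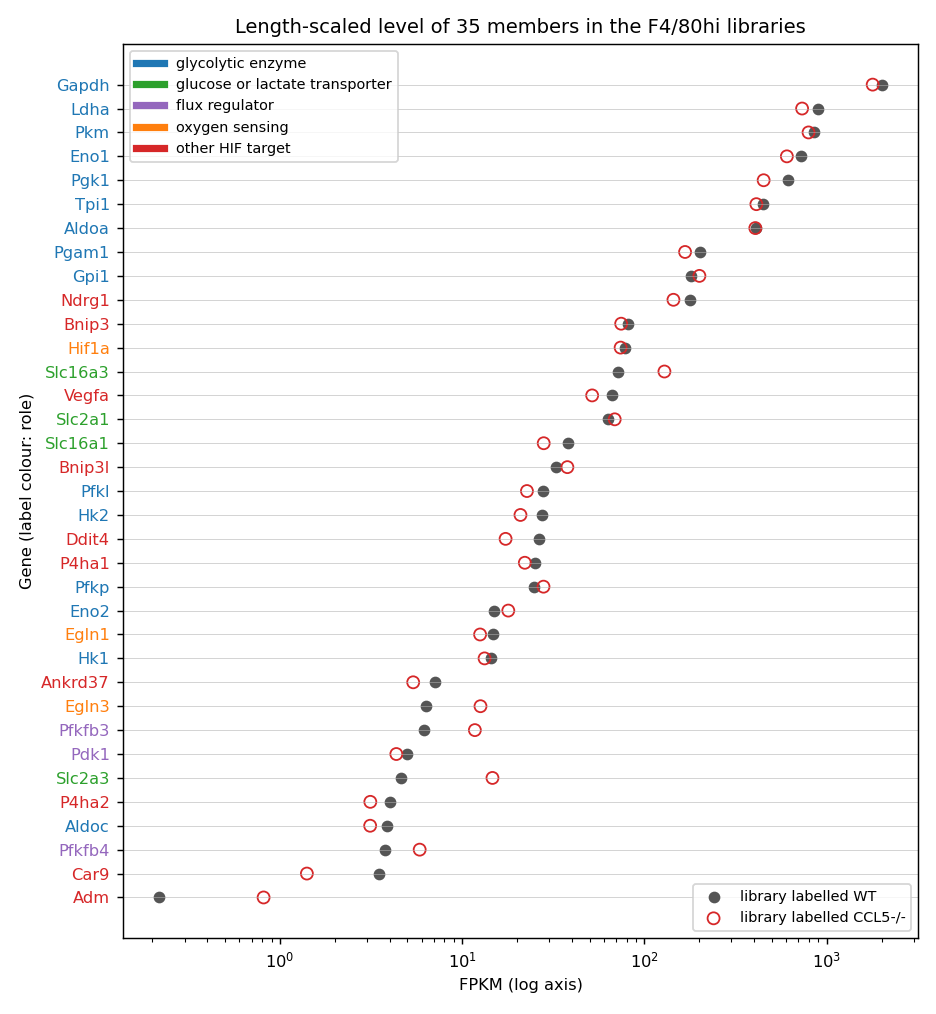
FPKM on a log axis for 35 genes in the F4/80hi library labelled WT (grey, filled) and the one labelled CCL5-/- (red, open), ordered by the first and with gene labels coloured by role. Gapdh, Ldha, Pkm and Eno1 lie at the top, and the widest gap among genes above 1 FPKM is that of Slc2a3.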

How the data were processed

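The authors deposited whole-number read counts per gene for the 4 F4/80low libraries (24391 rows), a table of their comparison with a log2 fold change, its standard error (a score here) and an adjusted p-value beside counts divided by size factors (a normalised signal), and FPKM with bounds for the 2 F4/80hi libraries (23284 rows). Tools listed without a role in the submitters' processing notes are TopHat2 2.1.1, Cufflinks 2.2.1, STAR, HTSeq, bcl2fastq 2.17.1.14, cutadapt, FastQC and DESeq2. The notes list several builds, mm10 among them. The order of steps, the build of each table, the strand setting and the rule for multiply matching reads are not given in the sources. The deposited FPKM loci of 35 of 35 genes lay over their GENCODE gene bodies in GRCm38.

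The test on counts was that of edgeR 4.0.16 under R 4.3.3 (filterByExpr, TMM, robust quasi-likelihood, two-sided) with Benjamini-Hochberg adjustment over 12710 genes at 0.05. A standard error is the log2 change divided by the square root of F. Pair differences are log2 ratios of CPM. FPKM were compared as log2(FPKM + 1) where either library had at least 1, without a test. Both fits were run on simulated counts with the same dispersion for every gene, which cannot show how they behave on these libraries. Alternatives were DESeq2 1.42.0, its size factors, no filter, Rn45s left out, a replicate term, and each library left out. The genes, lists and tests were chosen with earlier results of these data known. Genes given with values in every library were, per role, the up to 4 with the smallest p in each comparison. Pathway genes named were drawn from the up to 4 smallest p-values per list and comparison, except Arnt, which was chosen after its values were seen. Promoters printed are the 5 with most core words and no annotated exon. Protein sequences are not used here.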

Additional observations from a re-analysis of the deposited data

How the results depend on the processing

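The replicate numbers are shared by both genotypes, but the labels do not say that they pair the samples, and there are only 2 pairs. Deviations of same-numbered libraries correlated at r = 0.722 over 12579 genes. With the replicate number as a block, edgeR called 10 genes by genotype in place of 0. It called 0 of the 34 genes studied here, whose smallest adjusted p was 0.416. In that edgeR fit 4 of the 34 (Slc2a3, Pfkfb3, Egln3 and Car9) had an unadjusted p under 0.05. So did 745 of all 12710 genes tested. DESeq2 called 1 gene by genotype, and leaving out 1 library gave 0 to 4.

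Called by replicate number were 4047 genes, or 2067 to 3215 with 1 library left out and no genotype term, and 10 of the 34, or 3 to 12. Leaving out 1 library moved the genotype median of the enzymes to between 0.0614 and 0.48, that of the other 20 genes to between -0.0531 and 0.22, and the replicate number medians to between 0.16 and 0.51 and between -0.0841 and 0.23. In the CCL5-/- libraries alone the last median was 0.27. With a pseudocount of 0.1, 854 genes in place of 458 and 2 of the 34 in place of 1 lay 2-fold apart in F4/80hi. Signs turned without the filter for Ddit4 (0.0262), Pdk1 (0.0522) and Slc16a1 (0.0862) by replicate number and Slc2a1 (0.0106) by genotype, and with Rn45s left out for Slc16a1 (0.0285) by replicate number.

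With 1 library left out, where a lone library is assumed to vary like the others, the sign by genotype also turned for Adm (-0.23 to 0.21), Aldoa (-0.15 to 0.58), Ankrd37 (-0.0531 to 0.45), Bnip3l (-0.30 to 0.14), Egln3 (-1.79 to 0.44), Eno2 (-0.50 to 0.18), Gapdh (-0.34 to 0.74), Gpi1 (-0.0749 to 0.49), Hif1a (-0.97 to 0.48), Hk1 (-0.14 to 0.62), Ldha (-0.0029 to 0.61), Ndrg1 (-0.13 to 1.03), P4ha2 (-0.33 to 0.86), Pfkfb3 (-1.72 to 0.43), Pfkfb4 (-0.79 to 0.0083), Pfkp (-0.63 to 0.38), Pkm (-0.17 to 0.62), Slc16a3 (-1.005 to 0.18), Slc2a1 (-0.16 to 0.16), Slc2a3 (-2.13 to 0.0606), Tpi1 (-0.24 to 0.60) and Vegfa (-0.18 to 0.26). By replicate number it turned for Aldoc (-0.24 to 0.046), Ddit4 (-0.22 to 0.17), Gpi1 (-0.12 to 0.43), P4ha1 (-0.0211 to 0.39), Pdk1 (-0.35 to 0.27), Slc16a1 (-0.22 to 0.25) and Slc2a1 (-0.0841 to 0.19). With 1 library left out, differences by genotype that kept their sign still moved, as for Pgk1 (0.0953 to 0.55), Hk2 (0.0633 to 0.41), Egln1 (0.0707 to 0.55), Bnip3 (0.0798 to 0.54), Pdk1 (0.13 to 0.51) and P4ha1 (0.15 to 0.49). These genotype fits had no replicate term. With 1 library gone, the genotypes held different replicate numbers, so the replicate number difference entered the genotype difference. Gapdh turned although it was higher in CCL5-/- in both pairs (0.16 and 0.28). How much of each change this made up was not tested. The replicate 1 libraries had 3857011 and 5243643 counts outside Rn45s, which limits the precision of low genes such as Car9 and Adm. Medians within pairs or genotypes and Eno1b in place of Eno1 were chosen after seeing the data.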
